A study of Mus musculus with 32 samples.

Results

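Livers of female and male ND-fed WT mice were compared for every autosomal gene. The libraries were chosen by their labels for genotype, diet and sex, 8 of the 32 in the series, 4 from females and 4 from males, and no measured value entered the choice. All mice of both groups were wild type C57BL/6 (the C57Bl/6J substrain in the study's methods), were bought from The Jackson Laboratory, were 10 weeks old when feeding began and ate normal chow (ND) for 8 weeks. Of 41585 gene rows in the tables, 36260 were placed on autosomes and 11561 of these had enough counts to be tested. The remaining groups of the study were Cyp2b-null mice, a germline deletion of Cyp2b9, Cyp2b10 and Cyp2b13 made with CRISPR/Cas9 on the same background, and mice fed CDAHFD for the same time, a high fat diet that lacks choline and is made with defined amino acids, used to bring on fatty liver with inflammation. They are used below only to look at the same genes in other mice.

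The mouse liver is one of the organs in which the sexes differ most in gene expression. Growth hormone is released in pulses separated by long pauses in males and more evenly in females, and its receptor signals through JAK2 to the transcription factor STAT5b. STAT5b and partners such as HNF4A, together with the male-biased repressor BCL6 and the female-biased factor CUX2, set the expression of many cytochrome P450s (CYPs), sulfotransferases, transporters and secreted proteins. These genes clear steroids, bile acids and drugs, and many of them sit in tandem families of close copies.

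The female libraries held between 3035683 and 6433420 counts on genes and the male libraries between 5343468 and 8474172, so a floor of 3 counts lay between 0.354 and 0.988 CPM (counts scaled to library size, per 1e6). Xist had 1287 to 4033 counts in females and 0 to 5 in males, and the Y-linked Ddx3y had 0 to 1 and 410 to 592, so every library matched its label. Hepatocyte markers summed to between 128700 and 184100 CPM in females and between 113600 and 129000 CPM in males, while 8 of 9 pancreatic acinar markers had no count in any library. RNA of the mitochondrial genome made up 0.273 to 0.413% of counts in females and 0.478 to 1.15% in males, without overlap, and its part in the differences below was not tested. The counts of females and males came as separate tables, so any difference in handling between the tables cannot be told apart from sex. The labels number the libraries of a group without naming the animal, and p-values therefore measure the spread between libraries.

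Sex separated the libraries. The first principal component, which held 54.9% of the variance of log2 CPM, placed all 4 females on one side and all 4 males on the other. Correlations of log2 CPM were between 0.953 and 0.974 among females, between 0.963 and 0.979 among males and between 0.890 and 0.941 across the sexes. With edgeR's quasi-likelihood test, 1454 of the 11561 autosomal genes (12.6%) differed between the sexes at an adjusted p under 0.05. Of these, 739 (6.39%) were higher in females and 715 (6.18%) were higher in males. The groups did not overlap for 2242 genes (19.4%) and for 1294 of the called ones. The called genes were mostly protein-coding, 1300 in number.

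More of the large differences were on the female side. Over 2-fold were 389 genes higher in females (3.36%) and 226 higher in males (1.95%), and over 16-fold were 37 and 21. The median size was 1.03 on the log2 scale for female genes and 0.78 for male genes. Differences are given below as log2, male minus female, so that a negative value is higher in females, with their standard errors (SE), and levels as mean ± SD of the 4 libraries of a sex where they are not listed one by one. The even split of directions was also found with DESeq2 (862 and 859 genes). With scaling by library size only, the median of all genes moved by -0.116, 1066 genes were higher in females and 464 in males, and the male share of calls was 30.3% in place of 49.2%. Leaving out single libraries gave 413 to 834 female and 399 to 817 male genes, with the fewest without female replicate 3 and with 450 and 449 without male replicate 2.

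**Figure D1:**
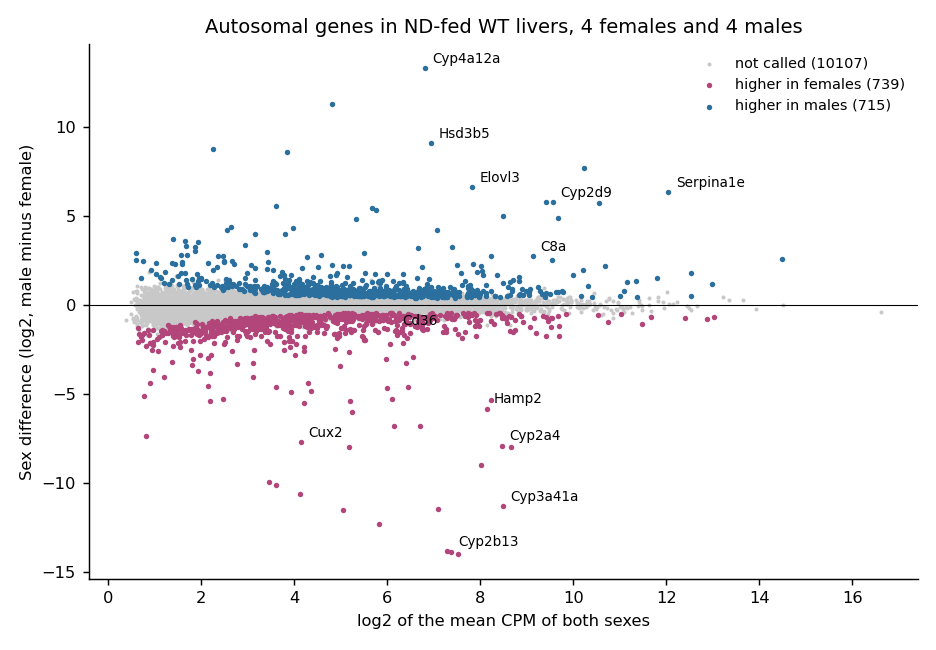
Sex difference of each tested autosomal gene (log2, male minus female) against the log2 of its mean CPM over both sexes, with 1 point per gene and colours for the 739 genes higher in females, the 715 higher in males and the 10107 not called. The largest differences reach beyond 10 on the log2 scale in both directions, and most called genes lie close to the zero line.

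Lists of genes by liver function held more called genes than the background in most cases. Sulfotransferases (10 of 12 tested), major urinary proteins (13 of 17), flavin monooxygenases, aldehyde oxidases and carboxylesterases (14 of 19) and CYP families 1 to 3 (24 of 44) had the largest shares among the lists drawn up by function. A list of other genes known as sex-dependent in mouse liver, chosen for that, had 10 of 15. None of 22 cholesterol synthesis genes was called with edgeR or DESeq2, 3 were lower in males at an unadjusted p under 0.05, 4 were called higher in females without a low-count filter or without female replicate 2, and 2 with all 8 groups in 1 fit. These lists were drawn up with results of these data known, and further members are named as examples after their values were seen.

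**Figure D2:**
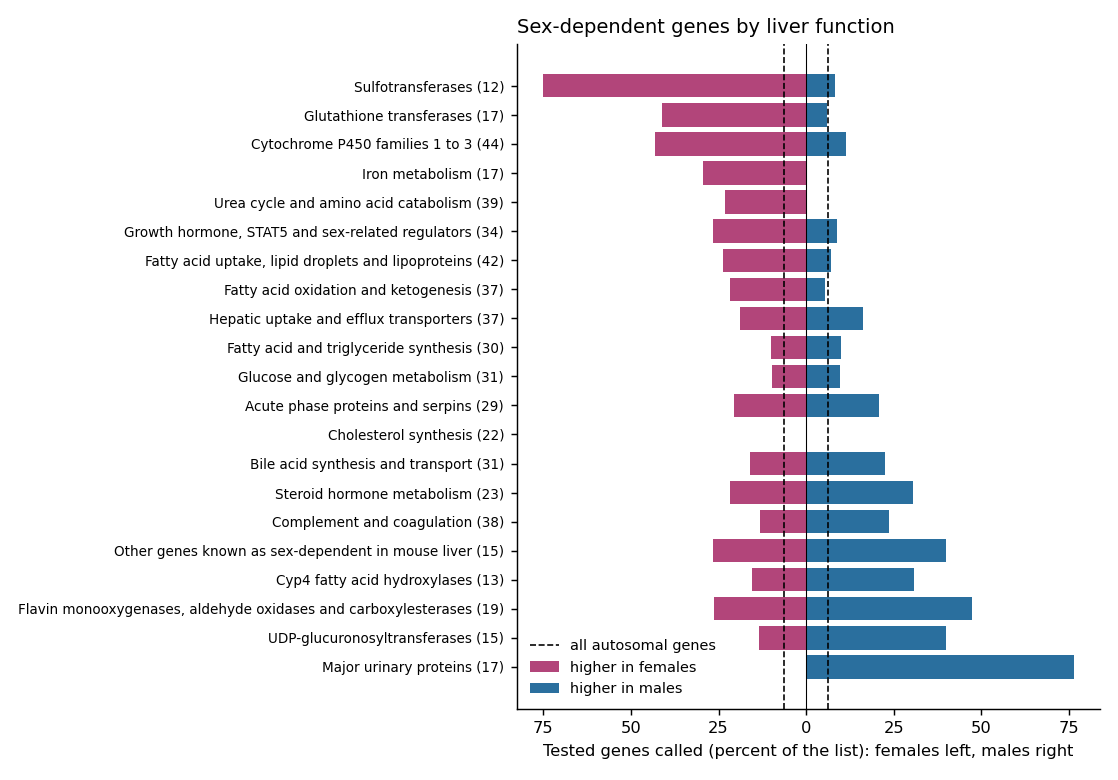
Share of the tested genes of each function list that were called higher in females (left) or higher in males (right), in percent, with the number of tested genes in brackets and dashed lines at the shares over all autosomal genes (6.39% and 6.18%). Sulfotransferases lie farthest to the female side and major urinary proteins farthest to the male side.

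Among the CYPs of families 1 to 3, which oxidise drugs, steroids and fatty acids, 19 of 44 tested genes were higher in females, 5 were higher in males and 20 were not called. Their median difference was -0.39, against -0.01 over all autosomal genes. The Cyp2b enzymes are targets of the xenobiotic receptor CAR. Cyp2b13 was read at 305, 297, 370 and 354 CPM in the females and had no count in any male library. It was therefore at least 2935-fold higher in females, taking 3 counts over the male group as the floor (adjusted p = 2.66e-10). Cyp2b9 was at 536, 463, 521 and 531 CPM in females and at 0, 1.02, 0.478 and 2.91 CPM in males (-8.97 ± 0.43 SE, adjusted p = 3.87e-09). Cyp2b10 differed less, with 63.0 ± 4.80 CPM in females and 9.93 ± 3.30 CPM in males (SD, n = 4), and its groups did not overlap. All 3 Cyp2b genes were thus female-biased, but only Cyp2b10 was above the floor in every male library.

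The neighbouring Cyp2a genes followed the same direction. Cyp2a4, a steroid 15-alpha-hydroxylase, was at 498, 788, 737 and 796 CPM in females and at 3.12, 4.23, 1.67 and 2.72 CPM in males (-7.91 ± 0.28, adjusted p = 2.28e-10). Cyp2a22 differed by -5.31 ± 0.30, while Cyp2a5, nearly identical to Cyp2a4, differed by only -1.56. In the Cyp3a family, Cyp3a41a was at 300.2, 938, 818 and 805 CPM in females and below 0.5 CPM in every male, at 0.164, 0.146, 0.478 and 0.194 CPM (-11.29 ± 0.48, adjusted p = 1.04e-09). Cyp3a11, the main Cyp3a of the mouse liver, was not called. In the Cyp2c family, Cyp2c69 (811 ± 153 against 3.04 ± 2.49 CPM) and Cyp2c40 (590 ± 66.9 against 14.5 ± 6.73 CPM) were higher in females. Reads of such near-identical copies may be split between them by the counting, so the difference of a single copy is less certain than that of its family.

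The male CYPs were fewer. Cyp2d9, a testosterone 16-alpha-hydroxylase, was at 23.2, 26.0, 31.6 and 26.8 CPM in females and at 1823, 1368, 1549 and 1214 CPM in males, a 55.5-fold difference (5.79 ± 0.19, adjusted p = 2.28e-10). The lowest male was far above the highest female. Cyp2d10, Cyp2d11, Cyp2c67 and Cyp2u1 were the other members higher in males, by 0.75, 0.68, 0.70 and 3.97.

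Of the 13 tested Cyp4 genes, which hydroxylate the end of fatty acid chains, 2 were higher in females and 4 in males, and the female count was 1 without female replicate 1, 2 or 3 or male replicate 2. Cyp4a12a, an arachidonic acid omega-hydroxylase, had no count in any female library and 268, 209, 275 and 141 CPM in males. It was at least 1438-fold higher in males (adjusted p = 1.70e-08). Its close copy Cyp4a12b, likewise without a count in females, was at 67.6, 67.6, 64.7 and 26.2 CPM in males, at least 366-fold higher. The fatty acid-induced Cyp4a14 ran the other way, but with a wide spread. It was at 1458, 1838, 446 and 434 CPM in females and at 337, 117, 414 and 387 CPM in males (-1.73 ± 0.46, adjusted p = 0.0242). The 2 lower females lay just above the highest male, and Cyp4a14 was not called without female replicate 1, female replicate 2 or male replicate 2 (adjusted p from 0.0522 to 0.0740).

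Sulfotransferases attach a sulfate group to steroids, bile acids and phenols. Of 12 tested genes, 9 were higher in females and 1 in males, with a median difference of -2.70, also with genes that had no count in males set to their bounds. With 13 genes tested the median was -4.18 without female replicate 1 and -4.24, -3.945, -4.07 and -3.997 without male replicates 1, 2, 3 and 4. It was -4.085 with all 8 groups in 1 fit. Sult2a1, which sulfates bile acids and dehydroepiandrosterone, was at 167, 351, 498 and 449 CPM in females and had no count in males, at least 3140-fold. Sult2a2, with 257, 250.0, 407 and 341 CPM in females, was at least 2757-fold higher. Sult2a3, Sult2a5 and Sult3a1 also had no count in males and were at least 206-fold, 188-fold and 581-fold higher. The exception was Sult2a8, the sulfotransferase of 7-alpha-hydroxylated bile acids in mice. It was at 336, 478, 389 and 382 CPM in females and at 905, 685, 788 and 854 CPM in males (1.03 ± 0.15, adjusted p = 0.000425), without overlap. Sult1a1, the main phenol sulfotransferase, was higher in females by about as much (-1.02 ± 0.15).

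The flavin monooxygenases are clustered on chromosome 1. Fmo2, Fmo4 and Fmo1 were higher in females, by -2.45, -1.33 and -0.93, and Fmo5 was higher in males by 0.56. Of 14 aldehyde oxidases and carboxylesterases tested, the latter of which hydrolyse ester drugs and lipids, 8 were higher in males and 1 in females. Aox3 was at 231 ± 32.6 CPM in females and 678 ± 70.8 CPM in males, and Ces3a at 490 ± 139 and 1550 ± 250.0 CPM. Ces1c was the carboxylesterase higher in females (-0.69).

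Glucuronic acid and glutathione are attached to drugs and steroids by separate enzyme families. Of 15 UDP-glucuronosyltransferases tested, 2 were higher in females and 6 in males, of which 4 belong to the Ugt2b group. Ugt2b38 was at 7.12 ± 2.24 CPM in females and 23.2 ± 6.00 CPM in males (1.68 ± 0.25), and Ugt1a5 at 115 ± 38.8 and 39.9 ± 6.99 CPM (-1.53 ± 0.22). Without 6 of the 8 libraries in turn, 1 Ugt gene was higher in females in place of 2. Of 17 glutathione transferases, 7 were higher in females and 1 in males. Gstt3 was at 99.5, 98.6, 137 and 165 CPM in females and at 36.1, 33.4, 40.9 and 44.5 CPM in males (-1.69 ± 0.18, adjusted p = 2.82e-05), without overlap. The male gene, Gsta1, was not called without female replicate 1 or female replicate 3.

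**Figure D3:**
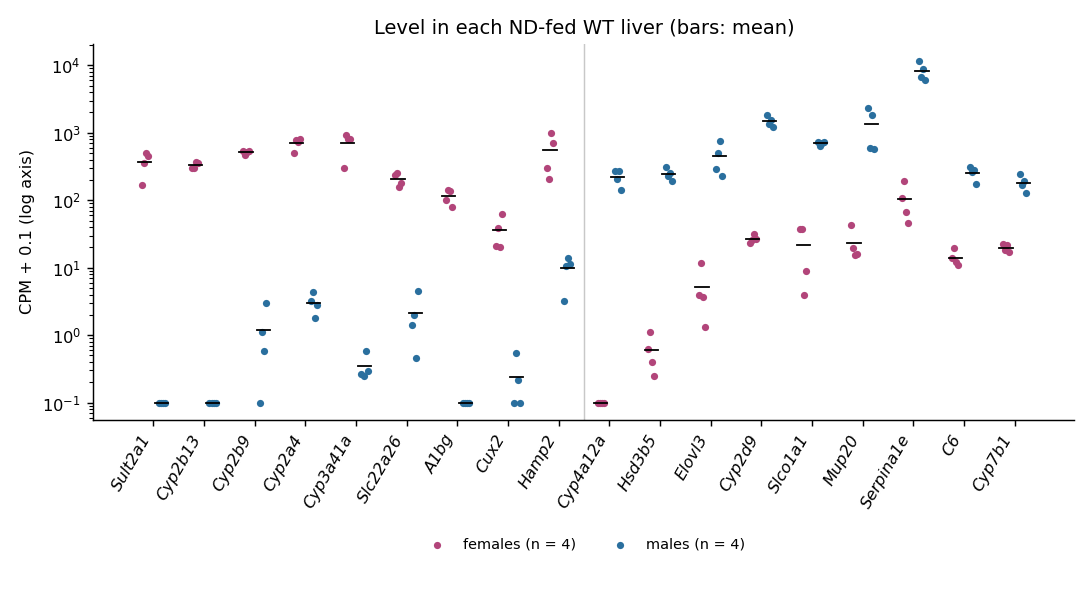
Level of 18 named genes in each of the 4 female and 4 male ND-fed WT libraries, as CPM plus 0.1 on a log axis, with bars at the group means and genes higher in females left of the grey line. Points at the bottom of the axis are libraries with no count, and in none of these genes do the sexes overlap.

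Transporters that carry bile acids, steroids and drugs into and out of hepatocytes differed in both directions, with 7 higher in females and 6 in males of 37 tested. Slco1a1, an uptake carrier of steroid conjugates, was at 37.3, 37.8, 3.84 and 8.73 CPM in females and at 722, 635, 710 and 717 CPM in males (5.0 ± 0.50, adjusted p = 1.37e-05). The related Slco1a4 was higher in females, at 216 ± 34.5 against 76.7 ± 34.8 CPM (-1.50 ± 0.26). In the Slc22a cluster of organic anion carriers, Slc22a26 was at 237, 257, 158 and 178 CPM in females and at 1.31, 1.90, 0.359 and 4.47 CPM in males (-6.80 ± 0.40, adjusted p = 3.81e-08). Its relative Slc22a28 was higher in males by 3.38.

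Steroid metabolism held 5 female and 7 male genes of 23 tested, and bile acid synthesis and transport 5 and 7 of 31. The medians of both lists were close to zero (0.07 and 0.09), and they changed sign with scaling by library size only (-0.03 and -0.01). Hsd3b5, a 3-ketosteroid reductase of the male liver, was at 0.523, 1.01, 0.295 and 0.151 CPM in females and at 312, 225, 253 and 192 CPM in males. That is a difference of 9.08 ± 0.31 (adjusted p = 2.28e-10). Srd5a1, which makes dihydrotestosterone, was higher in males by 1.73 ± 0.15. Cyp17a1, which has a central role in androgen synthesis in the gonads, was higher in females, at 81.4, 91.2, 217 and 279 CPM against 2.95, 7.74, 4.06 and 13.2 CPM (-4.62 ± 0.47, adjusted p = 1.81e-05). The lowest female was far above the highest male. Serpina6, the plasma carrier of glucocorticoids, was also higher in females (-1.39 ± 0.18).

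For bile acids, the enzymes of different branches differed unequally. Cyp7a1, the rate-limiting enzyme of the classical branch, was at 50.2, 86.5, 84.2 and 150 CPM in females and at 130, 105, 56.3 and 111 CPM in males, with full overlap (0.11 ± 0.29, adjusted p = 0.835). Its sign was negative without female replicate 1 (-0.11) or male replicate 1 (-0.04). Cyp7b1, of the alternative branch, was at 22.7, 18.2, 21.3 and 17 CPM in females and at 244, 166, 190 and 126 CPM in males (3.2 ± 0.20, adjusted p = 1.04e-07). Cyp8b1, which sets the share of cholic acid, was at 81.8, 105, 137 and 177 CPM and at 376, 477, 440 and 341 CPM (1.70 ± 0.21, adjusted p = 0.000114). Both enzymes were higher in every male than in any female. The number of male genes in this list fell from 7 to 4 with scaling by library size only and without female replicate 3, female replicate 4 or male replicate 2.

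Major urinary proteins are pheromone carriers that the liver secretes into blood for excretion. Of 17 tested, 13 were higher in males, with a median of 2.19. None was higher in females with edgeR, also at an unadjusted p under 0.05, or with DESeq2. Mup20, also called darcin, was at 43.2, 19.6, 15.1 and 15.8 CPM in females and at 2342, 595, 1835 and 575 CPM in males (5.81 ± 0.53, adjusted p = 4.78e-06). Mup14 was at 14.1, 19.3, 4.73 and 8.58 CPM in females and at 4006, 2010, 2790 and 687 CPM in males (7.69 ± 0.56, adjusted p = 4.12e-07). The males differed several-fold among themselves in both genes, and replicate 4 was the lowest in each. Many Mup copies are nearly identical, so counts of single copies are uncertain.

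Of 29 acute phase proteins and serpins, 6 were higher in each sex. Serpina1e, an alpha-1-antitrypsin copy, was at 108, 190, 67.4 and 45.2 CPM in females and at 11546, 6792, 8927 and 6143 CPM in males (6.36 ± 0.42, adjusted p = 1.62e-07), while the copies Serpina1a to Serpina1d were not called. Serpina3k was higher in males as well, at 2642 ± 498 against 9242 ± 1803 CPM. The female side was led by A1bg, a secreted immunoglobulin-like plasma protein on chromosome 15 (GRCm38.p6, chr15:60917589-60921270). A1bg was at 101, 140, 136 and 78.4 CPM in females and had no count in males, at least 930-fold higher (adjusted p = 1.60e-08).

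STAT5 binds palindromes of the form TTCNNNGAA, and the 250 bases before each gene's start to 50 bases after it were searched for these letters. The palindrome reads the same on both strands. Among tested genes with a RefSeq window (8490 of 11561, first window per symbol), 587 (6.91%) held it. It was found in 21 of 280 windows of genes over 2-fold higher in females (7.5%) and in 14 of 158 of those higher in males (8.86%). Over 16-fold, 4 of 28 female windows (14.3%) and 0 of 14 male windows held it. Of the genes with the largest difference in each sex that are named here, 7 female and 6 male genes had a window. Of these windows, those of A1bg and Sult3a1 held the palindrome. Their upstream windows are printed because they held it. Both genes had no count in any male library, but so had Cyp2b13, Hao2, Sult2a3 and Sult2a5, whose windows did not hold the palindrome. Each runs 5′ to 3′ on the strand of the gene up to the base before the start, with the match in capitals, from the RefSeq windows on GRCm38.p6. The A1bg window is chr15:60921271-60921520 on the minus strand, and the Sult3a1 window is chr10:33857472-33857721 on the plus strand. The Sult3a1 start in the window table lies inside the span of all its RefSeq transcripts, chr10:33851020-33879475, so other transcripts of the gene begin farther upstream.
A1bg: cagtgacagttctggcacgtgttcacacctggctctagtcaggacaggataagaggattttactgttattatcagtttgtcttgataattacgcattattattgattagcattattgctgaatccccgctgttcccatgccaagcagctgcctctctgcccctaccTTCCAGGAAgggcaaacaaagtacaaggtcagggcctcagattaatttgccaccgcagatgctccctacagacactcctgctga
Sult3a1: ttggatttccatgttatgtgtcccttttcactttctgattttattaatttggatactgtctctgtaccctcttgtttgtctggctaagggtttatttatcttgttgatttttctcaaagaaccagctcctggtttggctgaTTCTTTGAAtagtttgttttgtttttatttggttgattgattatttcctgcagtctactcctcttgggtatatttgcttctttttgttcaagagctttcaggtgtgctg
The match begins 84 bases before the A1bg start and 109 bases before the Sult3a1 start that the window table uses. The letters alone describe the sequence and not a bound site.

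Complement genes whose proteins form the membrane attack complex were looked at after their values were seen. Of 6 such genes in the list, C6, C8a, C8b, C9 and Hc, which encodes C5, were higher in males, and C8g was not called (-0.31 ± 0.16, adjusted p = 0.221). C6 was at 13.9, 19.3, 12.1 and 10.8 CPM in females and at 307, 265, 279 and 173 CPM in males, an 18.5-fold difference (4.21 ± 0.23, adjusted p = 1.34e-08). C8a was at 149, 236, 88.0 and 112 CPM in females and at 994, 1178, 908 and 847 CPM in males (2.75 ± 0.26, adjusted p = 6.07e-06). C8b, C9 and Hc were higher in males by 2.17 ± 0.15, 1.67 ± 0.13 and 0.76 ± 0.16. Over the list of 38 complement and coagulation genes, 9 were higher in males and 5 in females. The 5 female genes were C1qa, C1qb, C1qc, Mbl2 and F13b, and of these C1q is made by macrophages and Mbl2 by hepatocytes. C1qb was at 59.1, 60.5, 45.8 and 39.4 CPM in females and at 21.0, 9.78, 32.6 and 4.08 CPM in males (-1.57 ± 0.40, adjusted p = 0.0218). C1qb was not called with DESeq2 or without female replicate 1, female replicate 2 or male replicate 2. The female genes numbered 3 without female replicate 1 or female replicate 2 and 2 without male replicate 2.

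The C1q genes moved with the markers of Kupffer cells, the resident macrophages of the liver. C1qa is itself on that marker list and in its sums, so the C1q genes and the markers are not separate sets. All 9 Kupffer cell and macrophage markers tested were higher in females, and their levels summed to between 397 and 627 CPM in females and between 156 and 331 CPM in males. The part of these cells in the C1q differences was not tested. Marco, a scavenger receptor, differed by -2.56 ± 0.40, Lyz2, lysozyme, by -1.96 ± 0.30 and Clec4f, a Kupffer cell lectin, by -1.0 ± 0.20. The count fell to 5 without female replicate 2 and to 4 without male replicate 2. Fewer macrophages in male livers and less of these RNAs per macrophage cannot be told apart in bulk tissue. Of 11 stellate cell and fibroblast markers, Dcn, Lum and Rgs5 were higher in females and 8 were not called. That is 27.27% called, against 12.6% over all autosomal genes. The list sums were 280 to 369 CPM in females and 162 to 225 CPM in males, and 1 gene was called without female replicate 1. None of 10 endothelial markers was called with edgeR or DESeq2, and 4 were higher in females at an unadjusted p under 0.05, with sums of 305 to 369 and 232 to 304 CPM, and 2 were called with scaling by library size only or the replicate block and 1 without male replicate 3, without a low-count filter or with all 8 groups in 1 fit. Globin genes were higher in males (3 of 4 tested), with sums of the red cell markers between 140 and 291 CPM in females and between 310 and 442 CPM in males. Their count was 2 without female replicate 1, 2 or 3 or male replicate 2, and 4 with DESeq2. Markers of T and NK cells summed to at most 5.84 CPM and those of neutrophils to at most 3.84 CPM in every library.

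**Figure D4:**
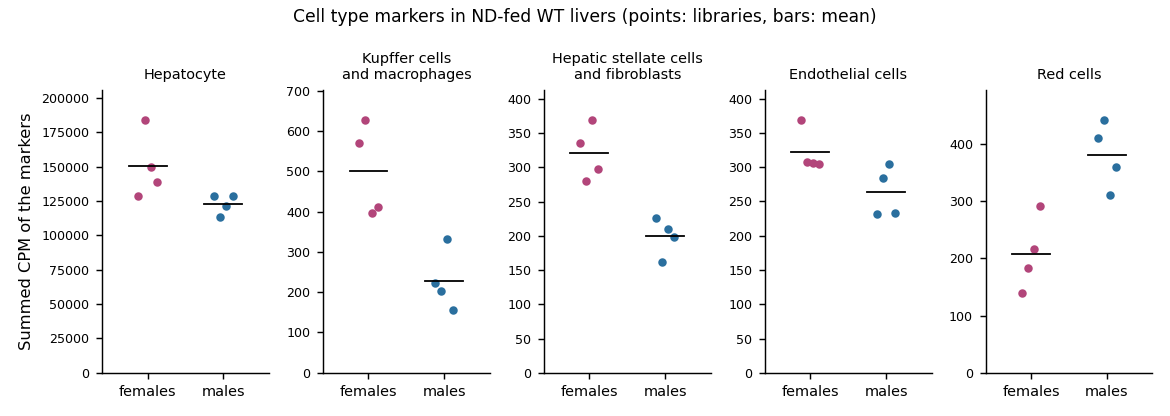
Summed CPM of the markers of 5 cell types in each ND-fed WT library, with bars at the mean of the 4 females and of the 4 males and a separate axis from 0 for each cell type. The macrophage, stellate cell and red cell sums do not overlap between the sexes. The endothelial sums are apart only narrowly (lowest female 304.5 CPM, highest male 304.1 CPM). The hepatocyte sums overlap (lowest female 128700 CPM, highest male 129000 CPM).

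Of 34 regulators of the growth hormone pathway and related factors, 9 were higher in females and 3 in males. Ghr, the growth hormone receptor, was at 512, 559, 592 and 548 CPM in females and at 776, 692, 699 and 723 CPM in males, without overlap but short of the threshold (0.39 ± 0.12, adjusted p = 0.0525), and it was called with DESeq2 (adjusted p = 0.00682). Stat5b was at 74.9 ± 8.25 and 70.2 ± 18.4 CPM (-0.10 ± 0.18, adjusted p = 0.767), and Igf1, the main circulating growth factor made under growth hormone, was at 642 ± 139 and 705 ± 135 CPM (0.14 ± 0.18, adjusted p = 0.656). Neither was called, and their groups overlapped. The sign of Stat5b turned without male replicate 1 (0.06).

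Cux2, the female-biased transcription factor, was at 21.1, 38.8, 20.1 and 62.0 CPM in females and at 0, 0.438, 0.120 and 0 CPM in males (-7.70 ± 0.60, adjusted p = 9.40e-07). Bcl6, the male-biased repressor, was not called, and its fitted difference lay on the female side. It was at 52.6, 25, 12.7 and 49.8 CPM in females and at 6.57, 8.32, 7.29 and 62.2 CPM in males (-0.81 ± 0.63, adjusted p = 0.423). Male replicate 4 alone was above every female. Without that library Bcl6 was higher in females (-2.27, adjusted p = 0.00338). Onecut1 (HNF6) was called higher in males (1.99 ± 0.53, adjusted p = 0.0246), on 2 of the 4 libraries. It was at 5.40, 3.72, 4.73 and 4.52 CPM in females and at 30.0, 32.6, 7.29 and 4.47 CPM in males. Onecut1 lost its call without any 1 of the 4 females or without male replicate 1 or 2 (adjusted p from 0.0532 to 0.0739).

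Prlr, the prolactin receptor, was at 345, 422, 324 and 387 CPM in females and at 104, 96.2, 74.5 and 164 CPM in males (-1.76 ± 0.21, adjusted p = 7.01e-05). Socs2, a feedback inhibitor of growth hormone signalling, was at 29.2 ± 7.30 and 8.59 ± 1.96 CPM (-1.75 ± 0.22). Trim24, a nuclear receptor cofactor, was at 63.8, 86.8, 60.9 and 64.1 CPM in females and at 17.9, 19.3, 11.7 and 30.5 CPM in males (-1.81 ± 0.23, adjusted p = 0.000168). Lepr, the leptin receptor, differed by -2.52 ± 0.27, and Egfr, the epidermal growth factor receptor, by 1.91 ± 0.23 in the male direction. The nuclear receptors that switch on Cyp2b and Cyp3a genes, Nr1i3 (CAR) and Nr1i2 (PXR), were both higher in females. Nr1i3 was at 104, 127, 125 and 128 CPM in females and at 80.6, 34.8, 55.1 and 65.1 CPM in males (-1.04 ± 0.21, adjusted p = 0.00507). Its gene overlaps the end of Tomm40l, which was also over 2-fold higher in females, and without a stated strand setting their reads cannot be told apart. Esr1, the estrogen receptor, was at 34.6 ± 7.10 CPM in females and at 14.1, 33.0, 14.1 and 18.8 CPM in males and was not called (-0.79 ± 0.26, adjusted p = 0.0583). It was called without male replicate 2 (-1.14, adjusted p = 0.00276) and with DESeq2 (adjusted p = 0.0343).

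Of 30 fatty acid and triglyceride synthesis genes, 3 were higher in each sex (20%, against 12.6% over all autosomal genes). Elovl3, which elongates very long saturated chains, was at 3.84, 11.8, 3.55 and 1.20 CPM in females and at 291, 508, 763 and 229 CPM in males, a 99.3-fold difference (6.63 ± 0.54, adjusted p = 1.60e-06). Scd1, the main desaturase, was at 11628 ± 5407 and 14032 ± 3850 CPM and was not called (0.27 ± 0.28, adjusted p = 0.570). Pnpla3, a lipid droplet lipase, was called higher in females (-2.81 ± 0.70, adjusted p = 0.0186), but its groups overlapped, at 5.75, 1.01, 10.0 and 15.5 CPM against 0, 2.63, 0.478 and 1.75 CPM. Without female replicate 3 or female replicate 4, no gene of the list was called higher in females, Pnpla3 included (adjusted p = 0.0501 and 0.0805), and with DESeq2 Pnpla3 was not called either.

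Of 42 genes of fatty acid uptake, lipid droplets and lipoproteins, 10 were higher in females and 3 in males, with a median of -0.26. Cd36, a fatty acid transporter, was at 99.9, 110, 110 and 100 CPM in females and at 36.8, 40.6, 48.8 and 27.2 CPM in males (-1.45 ± 0.17, adjusted p = 5.22e-05). Vldlr, the receptor of triglyceride-rich lipoproteins, was at 18.1 ± 5.14 and 4.07 ± 2.70 CPM (-2.21 ± 0.37). Apob, the scaffold of very low density lipoprotein, was higher in males, at 9648, 13615, 8289 and 13231 CPM against 4866, 5633, 3897 and 5493 CPM (1.17 ± 0.19, adjusted p = 0.00106). Lpl was not called (0.46 ± 0.27, adjusted p = 0.276). The number of female genes was 6 without female replicate 1, female replicate 3 or male replicate 2 and 5 without male replicate 4, and that of male genes was 5 without female replicate 2.

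Fatty acid oxidation and ketogenesis held 8 female and 2 male genes of 37 tested. Hao2, a peroxisomal hydroxy acid oxidase, was at 25.3, 17.6, 66.8 and 30.6 CPM in females and had no count in males, at least 295-fold. Acot3, a peroxisomal thioesterase, differed by -3.25 ± 0.47. The number of male genes in the list was not stable, with none called under scaling by library size only and without female replicate 3, female replicate 4, male replicate 1, male replicate 2 or male replicate 4, and 6 with DESeq2 or without female replicate 2.

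In glucose metabolism, 3 of 31 genes were higher in females and 3 in males (19.35%, against 12.6% over all autosomal genes). Pck1, of gluconeogenesis, was at 2681, 5634, 3610 and 3518 CPM in females and at 1914, 676, 2346 and 2402 CPM in males (-1.07 ± 0.32, adjusted p = 0.0414). Pck1 was not called without female replicate 2, 3 or 4 or male replicate 1 or 4 (adjusted p up to 0.113). The female count fell from 3 to 1 without female replicate 3, female replicate 4, male replicate 1 or male replicate 4. With scaling by library size only it was 5, and the male count was 1.

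Genes of the urea cycle and amino acid catabolism were called in the female direction only with this test, 9 of 39. That is 23.08%, against 12.6% over all autosomal genes. The female count was 6 without female replicate 3, male replicate 2 or male replicate 4, and 12 with DESeq2 or scaling by library size only. In males 5 were higher at an unadjusted p under 0.05, and 1 was called with DESeq2. Sds, serine dehydratase, was at 149, 201, 294 and 240 CPM in females and at 92.2, 79.1, 116 and 64.7 CPM in males (-1.33 ± 0.21, adjusted p = 0.00117). Ass1 of the urea cycle differed by -0.87 ± 0.17. Cps1, Arg1 and Asl were among the 30 not called.

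In iron metabolism, 5 of 17 genes were higher in females and none in males with edgeR or DESeq2. In males 2 were higher at an unadjusted p under 0.05, and 1 was called without female replicate 1, without a low-count filter or with all 8 groups in 1 fit. Hamp encodes hepcidin, the hormone that blocks iron export, and Hamp2 is its mouse duplicate. Hamp was at 997, 535, 936 and 546 CPM in females and at 379, 199, 439 and 269 CPM in males (-1.23 ± 0.26, adjusted p = 0.00744). Hamp2 differed far more, at 304, 209, 996 and 700 CPM against 3.12, 10.7, 13.9 and 11.1 CPM (-5.82 ± 0.52, adjusted p = 4.54e-06). The other female genes were Id1, a target of BMP signalling, Hmox1 and the iron exporter Slc40a1.

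Genes outside these functions included Nat8, an N-acetyltransferase, at 0 to 0.903 CPM in females and 15.5 to 30.4 CPM in males (5.58 ± 0.46), and Ntrk2, a neurotrophin receptor, at 11.7 to 37.5 and 0.717 to 1.17 CPM (-4.58 ± 0.41). Nat8f5 had no count in females and was at 7.06, 18.0, 8.37 and 5.05 CPM in males, at least 61.8-fold higher. Pitx3, a homeobox factor, had 1 count over the female libraries and was at 15.8, 32.6, 49.8 and 17.3 CPM in males. Its ratio was 584, with a 95% counting interval from 105 to 23064. The span of Pitx3 (chr19:46135281-46148325) overlaps that of Elovl3 (chr19:46131897-46135694), which was also higher in males. Without a stated strand setting the reads of the overlap cannot be told apart, so the values of Pitx3 may include reads of Elovl3. Of 19 circadian clock genes, 2 were higher in each sex (21.05%, against 12.6% over all autosomal genes), and this count moved between 0 and 5 over the alternatives. Of 9 early response and heat shock genes, none was called with edgeR, also at an unadjusted p under 0.05, or with DESeq2, while 1 was called higher in males without female replicate 1, without female replicate 2 or without a low-count filter.

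Sex-biased genes lay near each other. Another gene over 2-fold higher in females was found within 100 kb of 119 of the 389 such genes (30.6%), and of 1066 of all 11561 tested genes (9.22%). For males the shares were 53 of 226 (23.5%) and 580 (5.02%). On chromosome 7, Sult2a5, Sult2a2 and Sult2a1 lie within chr7:13623967-13837410, and Cyp2b13, Cyp2b9 and Cyp2a4 within chr7:26061388-26315088. On the male side, Mup20, Mup3 and Mup21 lie within chr4:62011337-62150841 and Serpina1e, Serpina12 and Serpina4-ps1 within chr12:103946931-104086920. In none of these 4 spans was a gene called in the direction of the other sex. Since neighbours in a family can share reads, these shares are a description.

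The same genes were then looked at in mice that the comparison had not used. In ND-fed Cyp2b-null mice, 4 females and 4 males, 2115 of 11414 autosomal genes tested differed by sex (18.5%), 1040 higher in females (9.11%) and 1075 in males (9.42%). Over 2-fold were 354 female (3.1%) and 242 male genes (2.12%). Of the 1454 genes called in WT mice, 1419 were tested there, 1391 (98.0%) had the same sign, 962 (67.8%) were called in the same direction and 0 were called in the opposite one by edgeR (1 at an unadjusted p under 0.05). Over 11249 genes tested in both, Pearson's r of the log2 differences was 0.880 and Spearman's rho 0.711. A correlation across genes describes these libraries, since genes are not independent replicates. A1bg was at 42.4 ± 19.6 CPM in Cyp2b-null females and at up to 0.300 CPM in Cyp2b-null males, while Sult2a1, Cyp4a12a and Hsd3b5 differed by -13.66, 11.16 and 8.34, on the side seen in WT mice. The test of whether the sex difference itself depended on genotype called 1 autosomal gene of 13272 (0.00753%), with 616 at an unadjusted p under 0.05. That gene was the deleted Cyp2b9. The test did not call the deleted Cyp2b13 (change of 16.4 ± 3.77, adjusted p = 0.468) or the deleted Cyp2b10 (2.55 ± 0.94, adjusted p = 0.9999). Cyp2a4 fell just short (3.89 ± 0.74, adjusted p = 0.0534), with a sex difference of -7.91 in WT and -4.02 in Cyp2b-null mice. The sex difference of a gene without a call may therefore still depend on genotype.

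In WT mice fed CDAHFD, which causes steatohepatitis, 1366 of 12169 genes differed by sex (11.2%), 701 higher in females (5.76%) and 665 in males (5.46%). Over 2-fold were 194 female (1.59%) and 125 male genes (1.03%). Of the WT ND genes, 1406 were tested there, 1301 (92.5%) had the same sign, 532 (37.8%) were called in the same direction and 3 in the opposite one. Pearson's r was 0.699 and Spearman's rho 0.595 over 11311 genes. Of the genes over 2-fold higher in ND-fed WT females, 365 were tested on CDAHFD, with a median difference of -1.43 on ND and -0.64 on CDAHFD. For the 202 male genes tested there it was 1.39 and 0.63. Genes not tested on CDAHFD, such as Hsd3b5 and Sult2a1, are not in these medians. In Cyp2b-null mice 361 female and 219 male genes were tested. Their medians were -1.42 and 1.47 in ND-fed WT mice and -1.12 and 1.35 in Cyp2b-null mice. The genes were chosen as large in the ND-fed WT libraries, and no test of these medians was made.

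**Figure D5:**
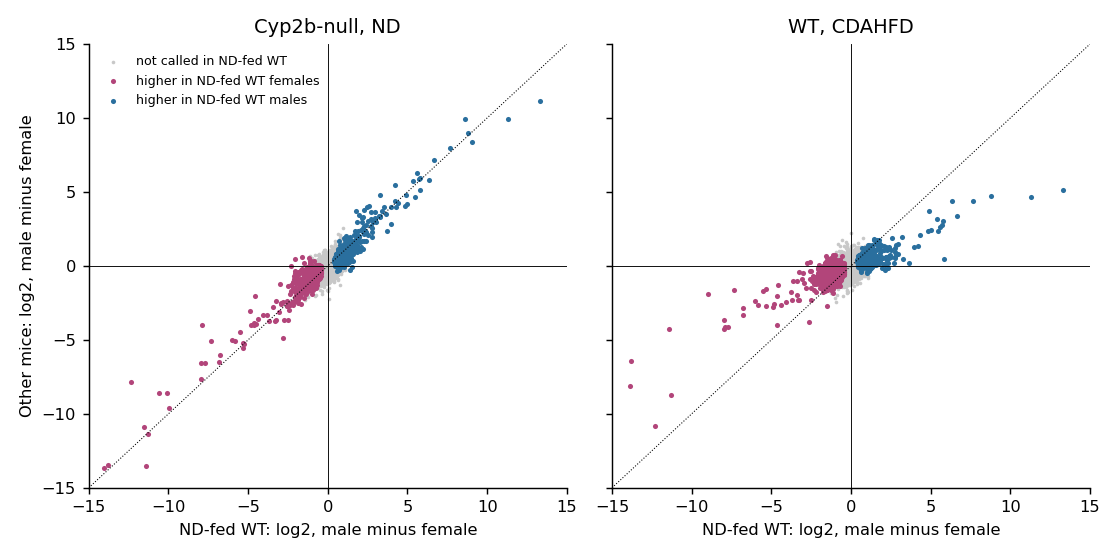
Sex difference (log2, male minus female) of each autosomal gene in ND-fed Cyp2b-null mice (left) and in CDAHFD-fed WT mice (right) against that in ND-fed WT mice, with colours for the 739 female and 715 male genes of ND-fed WT mice and a dotted line of equal differences. Large differences lie near the dotted line in Cyp2b-null mice and mostly between it and zero on CDAHFD.

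A dependence of the sex difference on diet was tested for each gene in a fit to all libraries, which shares the ND-fed WT libraries with the comparison above. It was called for 130 of 13272 genes (0.98%), 40 with a smaller and 90 with a larger male minus female value on CDAHFD. Of these, 99 were also called by sex in ND-fed WT mice. All 99 changed against their direction there, which sharing those libraries favours. For a gene higher in ND-fed females, a larger value is a shift away from the female side. Cyp2b9 was at 200 CPM in females and was at 53.3 CPM in males on CDAHFD, so that its difference changed by 7.08 ± 0.54 (adjusted p = 1.36e-10). Mup20 was at 805 CPM in CDAHFD-fed females and was at 1133 CPM in males (change of -5.29 ± 0.51, adjusted p = 3.98e-08). C6 was at 84.8 CPM in CDAHFD-fed females and 221 CPM in CDAHFD-fed males (change of -2.81 ± 0.38, adjusted p = 2.49e-05). Cd36 was at 325 and 333 CPM on CDAHFD, where it was not called (0.03, adjusted p = 0.924), and its difference changed by 1.51 ± 0.32 (adjusted p = 0.0103). The changes of Apob (-0.06 ± 0.27), Hamp (-0.11 ± 0.46) and Prlr (0.31 ± 0.29) were not called.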

How the data were processed

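Liver RNA of each library was sequenced as paired reads. Per the labels and the study's methods, the authors ran FastQC and Trimmomatic on the reads, used GSNAP with the GRCm38.p6 genome and assigned reads to genes by featureCounts of Subread. They deposited raw counts per gene. Versions, strand settings and the handling of reads with several matches are not given in the sources used here.

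The female and male tables were joined on gene symbol (41585 rows, of which 27 had symbols turned into dates). Genes were placed with RefSeq positions on GRCm38.p6, and 3458 rows without a position (1.45% of counts) were left out of autosomal counts. Low genes were dropped by filterByExpr (minimum count 10, minimum total 15), scaled with TMM and tested with edgeR 4.0.16 (R 4.3.3, glmQLFit and glmQLFTest), with only the 8 libraries of the comparison in the fit. P-values were adjusted with the Benjamini-Hochberg method over all 12154 genes tested, X and Y included. CPM values use TMM-scaled library sizes. The same fit was made for the sexes of Cyp2b-null mice on ND and of WT mice on CDAHFD, and interactions were tested in 1 fit to all 32 libraries. A sex with no count in any library was set to 3 counts over the group, and ratios on 1 to 3 counts have exact 95% Poisson intervals. Both cover counting error only.

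Genes were named by a rule: a set of anchor genes, the 10 largest called differences of each sex without overlap and with at least 5 CPM, and the largest of each function list. Some genes that the rule named are not reported here. Those outside it were chosen after their values were seen. Members and lists were chosen with earlier results of these data known. Alternatives were RLE factors, library size only, DESeq2 1.42.0, other low-count filters, a fit to all 8 groups, a replicate block, and fits without each single library. The test was tested on simulated counts with 200 genes changed by known folds. It recovered 164 of them (82%), and 69% of those changed by 2-fold, with 10 false calls.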

Additional observations from a re-analysis of the deposited data

Results flagged for a closer look

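A single library stood apart from the other 3 of its sex in 7 of 109 gene and sex combinations checked with Dixon's test, and chance gives about 1 in 20. Male replicate 4 was high for Bcl6 (62.2 CPM, others 6.57 to 8.32) and low for Cyp4a12b (26.2 CPM, others 64.7 to 67.6). Male replicate 2 was low for Slco1a1 (635 CPM, others 710 to 722). Female replicate 1 was high for Mup20 (43.2 CPM, others 15.1 to 19.6), and female replicate 2 for Trim24 (86.8 CPM, others 60.9 to 64.1). The other 2 cases rest on a few counts, with Cyp3a41a at 0.478 CPM in male replicate 3 and Pitx3 at 0.295 CPM in female replicate 3.

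The sex difference of 13 of the 60 named genes changed with diet in WT mice by the test of that change (log2, male minus female on CDAHFD less that on ND). Over all autosomal genes it was called for 130 of 13272 (0.98%). Many genes were named for large differences in the ND-fed WT libraries, which also enter this test, so the choice itself favours a smaller difference on CDAHFD. For genes higher in ND-fed females the male minus female value rose, which is a shift away from the female side. The rise was 11.02 ± 2.42 for Sult3a1 (adjusted p = 0.0236), 7.08 ± 0.54 for Cyp2b9 (adjusted p = 1.36e-10) and 3.98 ± 0.52 for Slc22a26 (adjusted p = 1.39e-05). Smaller changes were those of Cyp2a4 (3.81), Ntrk2 (3.29), Hamp2 (3.22) and Cd36 (1.51). For genes higher in ND-fed males the change was -8.33 ± 1.69 for Cyp4a12a (adjusted p = 0.00905), -5.29 for Mup20, -2.81 for C6, -2.75 for Cyp2d9, -2.09 for C8a and -1.15 for Ces3a. Sult3a1 was close to the floor in both sexes on CDAHFD (0.170 and 0.0917 CPM), so the size of its change depends on the fit. The sex difference of Cyp2b9 changed by 9.40 ± 0.89 between WT and Cyp2b-null mice (adjusted p = 5.41e-08), in which the gene is deleted.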

How the results depend on the processing

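Of 420 values of 60 named genes under alternatives that kept all libraries, 409 had the same direction and side of the threshold, 4 lost and 7 gained a call. Of 480 values without single libraries, 456 did, 19 lost and 2 gained a call and 3 turned sign. Those that turned were not called: Cyp7a1 ranged from -0.11 (-0.1085, without female replicate 1) to 0.45 and was -0.0365 without male replicate 1, and Stat5b ranged from -0.24 to 0.06 (0.0582, without male replicate 1). Higher in females and males were 1066 and 464 genes with library size only and 1254 and 1113 with all 8 groups in 1 fit. Without single libraries they numbered 413 to 834 and 399 to 817, on CDAHFD 293 to 714 and 256 to 698, and in Cyp2b-null mice 702 to 973 and 771 to 991. Genes whose signed male minus female value was larger in Cyp2b-null mice numbered 2 with library size only, 4 with DESeq2 and 36 without a low-count filter (18 smaller). They numbered 2 with at least 1 CPM in 4 libraries, 2 with only the 4 groups compared and 1 to 2 without single libraries. On CDAHFD, larger and smaller were 154 (larger, DESeq2), 314 and 133 without a filter, 54 and 21 with only the 4 groups compared, and 59 to 181 and 23 to 64 without single libraries. The cause of these moves was not tested, beyond the fewer or more libraries and genes in each fit. Libraries with the same replicate number in both sexes did not deviate together (correlations -0.086, -0.094, 0.119 and 0.052). With the replicate number as a block, 733 genes were higher in females and 688 in males, and Cyp4a14 and Pck1 lost and Esr1 gained a call. Low levels are limited by depth, at 3 counts or up to 0.988 CPM.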

Other observations

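Genes induced by interferon were looked at after they had been seen among neighbouring female-biased genes, so their count is a description. Of 20 tested guanylate-binding proteins, immunity-related GTPases, Ifit and Ifitm genes, 12 were higher in females and none in males by edgeR or DESeq2, with 19 female and 0 male genes at an unadjusted p under 0.05 and a median of -1.02. Gbp3, which restricts intracellular pathogens, was at 12, 18.9, 23.6 and 22.3 CPM in females and at 3.94, 4.96, 8.13 and 5.05 CPM in males (-1.77 ± 0.26, adjusted p = 0.000624). Ifitm3, which blocks viral entry, was at 330 ± 56.6 CPM in females and 147 ± 56.8 CPM in males (-1.16 ± 0.23). The count fell to 6 without female replicate 3.

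The next lists were also chosen after values had been seen. Of 5 tested genes of MHC class II presentation, H2-Aa, H2-Eb1 and Cd74 were higher in females (-1.48, -1.09 and -1.41), and 1 of them was called without female replicate 3. Of 10 cathepsins, Ctss and Ctsc were higher in females (-1.65 and -1.34) and 8 were not called. That is 20% called, against 12.6% over all autosomal genes. These genes are expressed by macrophages and dendritic cells among others, and the macrophage marker sums were also higher in the female libraries (397 to 627 against 156 to 331 CPM). The part of these cells in the differences of the 3 lists was not tested.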
